A study of Saccharomyces cerevisiae with 6 samples.

Results

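The genes described here encode the machinery that brings proteins into yeast mitochondria and folds them there. A list of 38 genes was chosen by name, with earlier results of these data known. Counts over the list therefore describe these data and are not an independent test of it. It held the TOM and SAM complexes of the outer membrane, the MIA oxidation pathway and the small TIM chaperones of the intermembrane space, the TIM22 and TIM23 complexes of the inner membrane, the import motor, the processing peptidase, the matrix chaperones and the insertase OXA1. Probes named for 31 of the 38 were found among the 6226 features measured, 26 under their current symbol and 5 under an older one. The older symbols were TOM37 for SAM37, MRS11 for TIM10, MRS5 for TIM12, MAS6 for TIM23 and MIA1 for PAM16. The other 7 genes (SAM35, SAM50, MIA40, TIM21, TIM50, PAM17 and PAM18) matched no named probe and were not analysed here.

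Nearly all mitochondrial proteins are made in the cytosol from nuclear genes and enter the organelle through the TOM complex. Proteins with a cleavable presequence then pass through TIM23 and are pulled into the matrix by the Hsp70-driven motor, where the processing peptidase removes the presequence and chaperones fold the product. Carrier proteins travel with the small TIM chaperones to TIM22, beta-barrel proteins are inserted by SAM, and small cysteine-rich proteins are trapped in the intermembrane space by the oxidation pathway.

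A flor and a wine strain of Saccharomyces cerevisiae were compared with 3 arrays each. P3_Kan is a haploid flor yeast of mating type alpha that carries a KanMx cassette, and K1_Kan is a haploid wine yeast of mating type a whose title also carries Kan without further explanation. Flor yeasts live as a film on wine after fermentation, but both strains were shaken in liquid culture here, at 28 °C in a wine-like synthetic medium, and harvested when the optical density reached 1, and the labels state that no film forms under shaking. Each kind of yeast is represented by 1 strain, and mating type differs together with strain. The labelled mating types were followed by the a-specific genes (7 of 7 lower in flor) and the alpha-specific genes (4 of 4 higher).

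Each value is a log2 intensity of a Cy3-labelled 1-colour array. The array medians ran from 8.33 to 8.35, and from this the deposited values were taken to be already normalized between arrays. All changes are therefore relative to the other genes, and in these bulk cultures a smaller share of expressing cells and less RNA per cell cannot be told apart. A change is the flor mean minus the wine mean on the log2 scale, tested with limma across all 6226 features with Benjamini-Hochberg adjustment and called at an adjusted p under 0.05. A spread written with ± is an SD over 3 arrays. Flor replicate 1 stood apart. It correlated with flor replicates 2 and 3 at 0.9877 and 0.9903 across all features, while those correlated with each other at 0.9971 and the wine arrays at 0.9971 to 0.9975.

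Among the import and folding genes, decreases in the flor strain far outnumbered increases. Of the 31 measured, 15 (48.4%) were called lower, where 23.6% of all features were, and 1 gene, TOM7, was called higher (3.23%), where 20.5% of all features were. The median change was −0.32 over the 31 genes and −0.02 over all features, and 25 of the 31 changes lay below 0. The 3 flor values lay wholly below the 3 wine values for 16 of the genes (51.6%), against 30.4% of all features. These were the 15 called genes and TIM17. The flor values lay wholly above the wine values for TOM7 alone (25.7% of all features). Most of the changes were moderate. The median of the 15 decreases was −0.52, 9 of them reached 0.5, and 1, that of the processing peptidase subunit gene MAS2, exceeded 1. For the 15 called genes this non-overlap fixes a lower flor value on both slides of the experiment, so the slides are no separate evidence. The median over the 31 genes was −0.29 on slide 1 (1 array per strain) and −0.32 on slide 2 (2 arrays per strain).

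**Figure D1:**
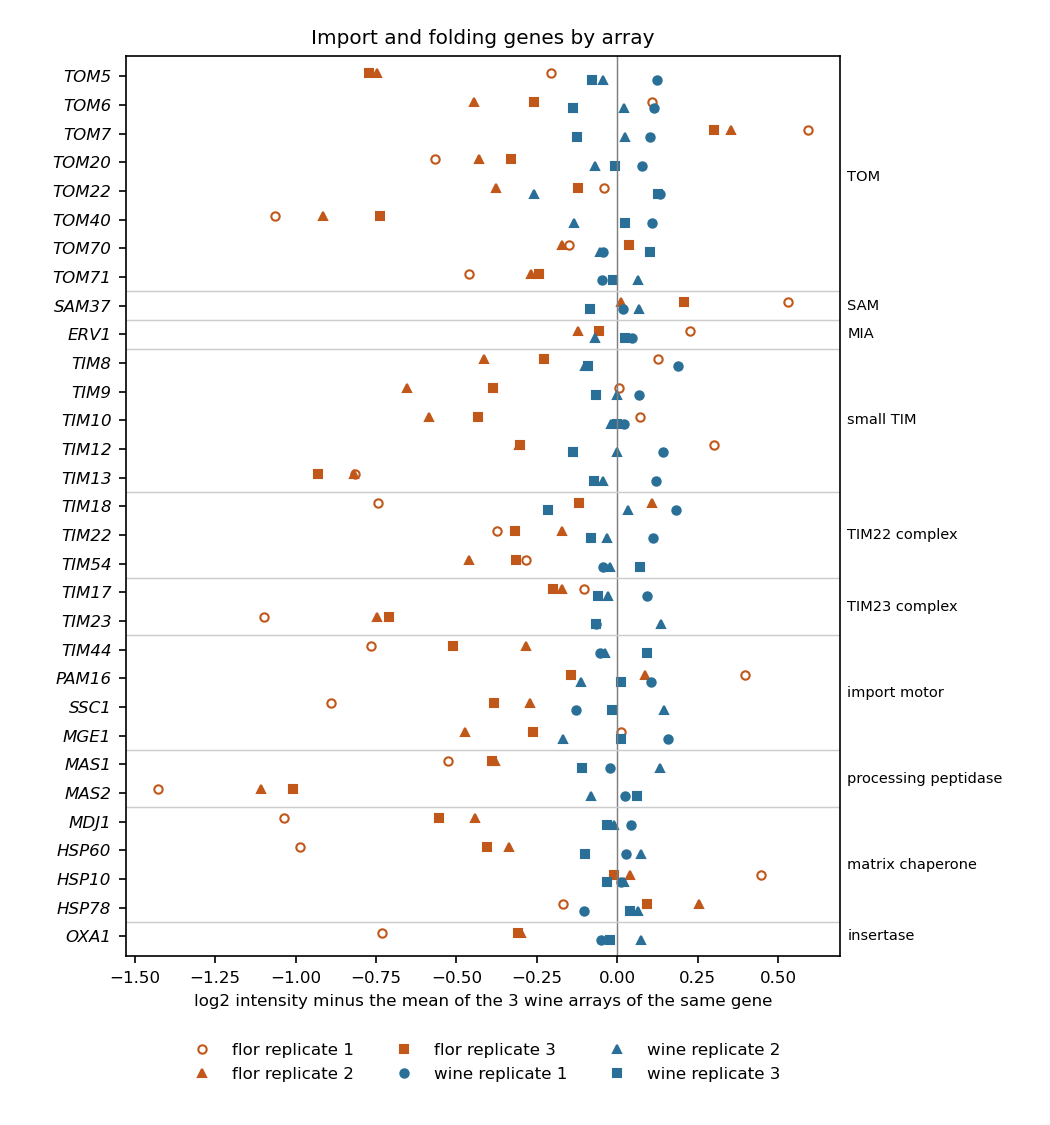
Log2 intensity of each of the 31 import and folding genes on each array, with the mean of the 3 wine arrays of the same gene subtracted, grouped by the complex or step the product belongs to. Flor arrays are orange (flor replicate 1 as an open circle) and wine arrays blue; the flor points lie wholly left of the wine points for 16 genes, and flor replicate 1 is the flor array farthest to one side for 30 of the 31.

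Flor replicate 1 was the highest or the lowest of the flor arrays for 30 of the 31 genes, above both others for 16 and below both for 14. The same count over all features, where this array also stood apart, was not computed. The distance of flor replicate 1 from the mean of flor replicates 2 and 3 ran from −0.74 for TIM18 to 0.60 for TIM12. This distance followed gene length (Spearman's rho −0.73 and, on log2 length, Pearson's r −0.73 over 31 genes). These are descriptions, since all points share the same 3 arrays. Over the 4052 genes with a length the rho was −0.44. Of the 19 import and folding genes shorter than 1000 bases, a limit chosen after the values were seen, flor replicate 1 lay above the other flor arrays for 15, and the exceptions were TOM20, TIM18, TIM22 and TIM23. Of the 12 genes of 1000 bases or more it lay below them for 10, and the exceptions were TOM70 and TIM54. The median flor SD was 0.24 for the import and folding genes against 0.13 for all features, whereas the wine SDs were 0.09 and 0.08.

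**Figure D2:**
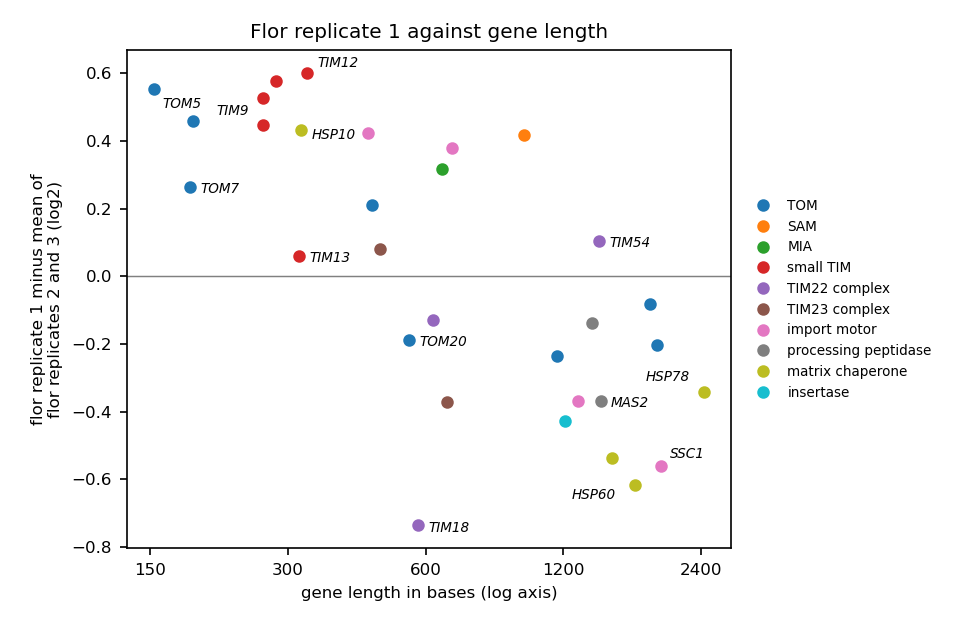
Distance of flor replicate 1 from the mean of flor replicates 2 and 3 (log2, vertical axis) against gene length in bases (log axis) for the 31 genes, coloured by complex or step. Most short genes lie above 0 and most long genes below it, from 0.60 for TIM12 to −0.74 for TIM18.

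Without flor replicate 1 the number called lower was 21 of 31, where 28.5% of all features were, and TOM7 was still the 1 gene called higher, where 24.1% were. The 21 held all 15 genes called with 6 arrays and TOM6, TIM8, TIM9, TIM10, TIM12 and MGE1, each shorter than 1000 bases. The median was then −0.33, against −0.03 for all features. Among genes under 1000 bases the number called lower went from 5 to 11 of 19, and among longer genes it stayed at 10 of 12. The shares of all features called in these 2 length classes were not computed. Over all genes with a length the change itself fell with length (Spearman's rho −0.23, and −0.13 without flor replicate 1), so the 2 counts are not directly comparable. When the trend of each array with gene length was removed, 22 genes were called lower (26.0% of the 4052 genes tested) and 1 higher (24.0%), with a median of −0.36. The 22 again held all 15. Leaving out any 1 of the 6 arrays gave between 10 genes lower (without wine replicate 2, 17.3% of all features) and 21 (without flor replicate 1, 28.5%).

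**Figure D3:**
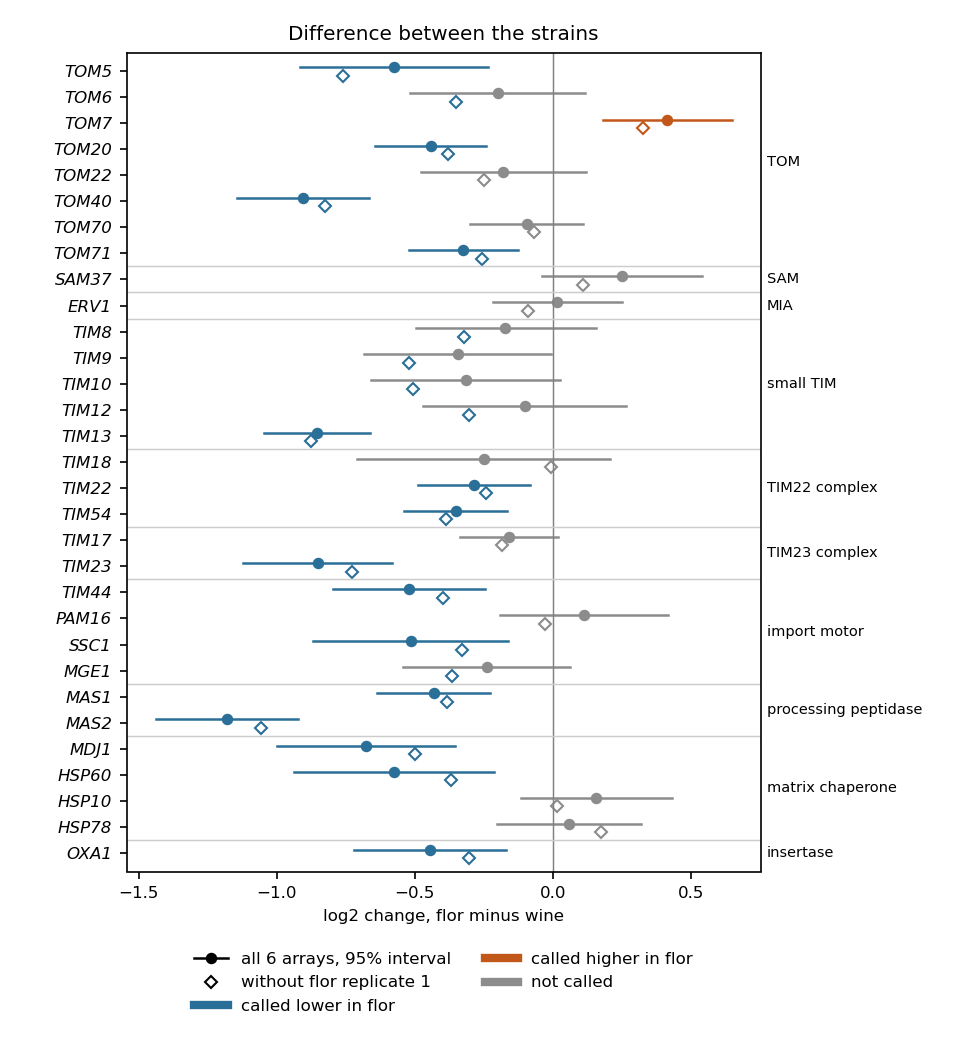
Log2 change, flor minus wine, of each gene with all 6 arrays (filled circles, with the 95% interval of the limma fit) and without flor replicate 1 (open diamonds). Blue marks a gene called lower in flor, orange a gene called higher and grey a gene not called; TOM7 is the 1 gene called higher, and all 5 small TIM genes are called lower without flor replicate 1 but TIM13 alone with all arrays.

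In the TOM complex 4 of 8 genes were called lower, TOM7 was called higher (23.6% and 20.5% of all features were called lower and higher), and the median change was −0.26. TOM40, the beta-barrel pore through which precursors cross the outer membrane, gave 9.21, 9.36 and 9.53 in flor replicates 1 to 3 and 10.38, 10.14 and 10.29 in the wine replicates. Every flor value lay below every wine value, and the gene was 1.87-fold lower in flor (95% interval 1.59 to 2.21, limma adjusted p = 0.00019). TOM20, a receptor for presequences, gave 8.87, 9.01 and 9.11 in flor and 9.52, 9.37 and 9.43 in wine. It was 1.36-fold lower (1.18 to 1.56, limma adjusted p = 0.0039), and its call and that of TOM40 held with any 1 array left out.

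The 3 smallest TOM subunits differed in direction. TOM5 helps pass precursors to the pore and gave 8.76, 8.22 and 8.19 in flor against 9.09, 8.92 and 8.89 in wine, so that the strains did not overlap. Its change was −0.57 ± 0.15 (SE, limma adjusted p = 0.013). It was −0.76 without flor replicate 1 and −0.40 (adjusted p = 0.0031) with the length trend removed. The gene was not called without flor replicate 3 (adjusted p = 0.051) or wine replicate 1 (0.056). TOM7, which acts on the assembly of the complex, went the other way, with 11.78, 11.54 and 11.48 in flor against 11.29, 11.21 and 11.06 in wine. It was 1.33-fold higher in flor (1.13 to 1.57, limma adjusted p = 0.011), without overlap, but not called without wine replicate 3 (adjusted p = 0.052). TOM6, which stabilises the complex, gave 11.22, 10.67 and 10.86 against 11.23, 11.14 and 10.98, and flor replicate 1 fell within the wine range. Its change was −0.20 (limma adjusted p = 0.28) with 6 arrays and −0.35 (adjusted p = 0.0071) without flor replicate 1.

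The paralogous receptors TOM70 and TOM71, which take up carriers and other precursors delivered by cytosolic chaperones, are similar in sequence, so their probes may share signal. TOM70 had flor values of 9.10, 9.07 and 9.28 and wine values of 9.20, 9.19 and 9.35, which overlapped. The change of TOM70 was −0.10 (95% interval −0.30 to 0.11, limma adjusted p = 0.42). TOM71 had flor values of 8.04, 8.23 and 8.26 and wine values of 8.45, 8.56 and 8.48, all higher than in flor. TOM71 was 1.25-fold lower in flor (1.09 to 1.43, limma adjusted p = 0.015), and not called without wine replicate 2 (adjusted p = 0.064). With the length trend removed its change was −0.20 (adjusted p = 0.049). TOM22, the central receptor and organiser of the complex, had a change of −0.18 (−0.48 to 0.12, limma adjusted p = 0.30). On slide 1 it was higher in flor by 0.14 and on slide 2 lower by 0.34, so the slides did not share a direction. With the length trend removed TOM22 was called lower (−0.35, adjusted p = 0.027).

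SAM37 and ERV1 were the measured genes of the SAM complex and the oxidation pathway. SAM37, a peripheral subunit of the insertase for beta-barrels, gave 10.64, 10.13 and 10.32 in flor and 10.13, 10.18 and 10.03 in wine, with a change of 0.25 (−0.04 to 0.54, limma adjusted p = 0.15). Without flor replicate 2 it was called higher (0.37, adjusted p = 0.032), and without flor replicate 1 its change was 0.11. ERV1, the sulfhydryl oxidase that reoxidises the receptor of that pathway, gave 9.93, 9.58 and 9.65 in flor and 9.75, 9.63 and 9.73 in wine. Its change of 0.02 (−0.22 to 0.25, limma adjusted p = 0.92) was −0.09 without flor replicate 1.

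Of the 5 small TIM genes, TIM13 was called lower in flor, a number near the share of all features called lower (23.6%). The other 4 were not called with 6 arrays but were called lower without flor replicate 1, where 28.5% of all features were. With any other single array left out, TIM13 alone was called lower. TIM9 and TIM10 encode the essential chaperone pair of the intermembrane space. TIM9 gave 12.09, 11.43 and 11.69 in flor and 12.15, 12.08 and 12.02 in wine. TIM10 gave 11.49, 10.83 and 10.99 in flor and 11.44, 11.40 and 11.42 in wine. For both genes flor replicates 2 and 3 were below all wine arrays, and flor replicate 1 was within or above their range. The changes were −0.34 for TIM9 (limma adjusted p = 0.092) and −0.32 for TIM10 (0.12), and without flor replicate 1 they were −0.52 (adjusted p = 0.00049) and −0.51 (0.00017).

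TIM8 and TIM13 encode the other, non-essential pair. TIM13 gave 8.36, 8.35 and 8.24 in flor and 9.29, 9.13 and 9.10 in wine, a 1.81-fold difference (1.58 to 2.07, limma adjusted p = 7.2e-05) without overlap. It was the 1 small TIM gene for which flor replicate 1 stood close to the other flor arrays (0.06 above their mean). TIM8 gave 11.20, 10.66 and 10.85 in flor and 11.26, 10.97 and 10.98 in wine. Its change was −0.17 (limma adjusted p = 0.37), and without flor replicate 1 it was −0.32 (adjusted p = 0.018). TIM12, the small TIM bound to the TIM22 complex, gave 9.20, 8.60 and 8.60 in flor and 9.05, 8.90 and 8.77 in wine. Its change moved from −0.10 (limma adjusted p = 0.65) to −0.30 (0.013) without flor replicate 1.

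Of the 3 TIM22-complex genes, TIM54 and TIM22 were called lower in flor, and none higher, where 23.6% and 20.5% of all features were. TIM54, a subunit with a large domain in the intermembrane space, gave 9.69, 9.51 and 9.65 in flor and 9.92, 9.95 and 10.04 in wine, without overlap, and was 1.28-fold lower (1.12 to 1.45, limma adjusted p = 0.0081). TIM22, the channel-forming subunit for carrier insertion, gave 7.41, 7.62 and 7.47 against 7.90, 7.76 and 7.71 and was 1.22-fold lower (1.06 to 1.40, limma adjusted p = 0.029). The TIM22 call was lost without flor replicate 3 (adjusted p = 0.084), wine replicate 1 (0.12) or wine replicate 2 (0.070), while that of TIM54 held with any 1 array left out. TIM18, a membrane subunit of the complex, had the lowest flor replicate 1 of the whole group relative to its fellows (9.26 against 10.11 and 9.88). With wine values of 10.18, 10.03 and 9.78 its change was −0.25 (limma adjusted p = 0.35), and −0.01 without flor replicate 1.

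TIM23 and TIM17 form the channel of the presequence translocase. TIM23 gave 9.53, 9.88 and 9.92 in flor and 10.56, 10.76 and 10.56 in wine. The strains were well apart, with a 1.81-fold decrease in flor (1.5 to 2.17, limma adjusted p = 0.00051) that held with any 1 array left out. TIM17 gave 11.98, 11.91 and 11.88 in flor and 12.17, 12.05 and 12.02 in wine. Its strains did not overlap either, but the change was small (−0.16, −0.34 to 0.02, limma adjusted p = 0.13). TIM17 was called lower with the length trend removed (−0.32, adjusted p = 0.0074) and with array weights (0.042).

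Of the 4 measured motor genes, TIM44 and SSC1 were called lower, and none higher, where 23.6% and 20.5% of all features were. TIM44 tethers the motor to the channel and gave 8.88, 9.36 and 9.13 in flor and 9.59, 9.61 and 9.74 in wine, a 1.43-fold difference (1.19 to 1.74, limma adjusted p = 0.0080). SSC1, the mitochondrial Hsp70 that pulls precursors in and folds them, gave 12.38, 12.99 and 12.88 in flor and 13.14, 13.41 and 13.25 in wine. All SSC1 values in flor were lower than in wine, by 1.43-fold on average (1.12 to 1.83, limma adjusted p = 0.025). The SSC1 change was −0.33 (adjusted p = 0.0091) without flor replicate 1, and it was not called without wine replicate 2 (adjusted p = 0.10) or 3 (0.068). MGE1, the nucleotide exchange factor of SSC1, gave 10.81, 10.33 and 10.54 against 10.95, 10.63 and 10.81. Its change was −0.24 (limma adjusted p = 0.18) with 6 arrays and −0.37 (0.0098) without flor replicate 1. PAM16, a J-like regulator of SSC1, overlapped between strains, at 9.37 to 9.91 in flor and 9.40 to 9.62 in wine (change 0.11, limma adjusted p = 0.53).

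MAS1 and MAS2, the subunits of the peptidase that cuts off presequences, were both called lower in flor, where 23.6% of all features were. MAS2, the subunit that recognises the presequence, gave 8.74, 9.06 and 9.16 in flor and 10.19, 10.09 and 10.23 in wine. Its highest flor value was below its lowest wine value by a wide margin, and the 2.27-fold decrease (1.89 to 2.71, limma adjusted p = 6.1e-05) had the largest size among the 31 genes. MAS1, the catalytic subunit, gave 10.45, 10.60 and 10.59 in flor and 10.95, 11.11 and 10.87 in wine, and was 1.35-fold lower (1.17 to 1.55, limma adjusted p = 0.0047). Both calls held with any 1 array left out.

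The 4 matrix chaperone genes did not move as 1 block. HSP60, the chaperonin, gave 12.87, 13.53 and 13.46 in flor and 13.89, 13.93 and 13.76 in wine, without overlap. It was 1.49-fold lower in flor (1.16 to 1.92, limma adjusted p = 0.018). Its change was −0.37 (adjusted p = 0.0021) without flor replicate 1, and the call was lost without wine replicate 1 (adjusted p = 0.058) or 2 (0.071). HSP10, the co-chaperonin that caps HSP60, gave 13.02, 12.61 and 12.56 in flor and 12.58, 12.59 and 12.54 in wine. Flor replicate 3 lay within the wine range, flor replicate 2 just above it and flor replicate 1 farther above. The change was 0.16 with 6 arrays (−0.12 to 0.43, limma adjusted p = 0.33) and 0.01 without that array.

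MDJ1, the J protein that works with SSC1 in folding, was the most reduced of the matrix chaperones. Its values were 9.92, 10.51 and 10.40 in flor and 11.00, 10.95 and 10.92 in wine, and it was 1.60-fold lower (1.28 to 2.00, limma adjusted p = 0.0049). The call held with any 1 array left out. HSP78, the matrix disaggregase, gave 12.46, 12.88 and 12.72 in flor and 12.53, 12.69 and 12.67 in wine. The strains overlapped, with a change of 0.06 (−0.20 to 0.32, limma adjusted p = 0.71). OXA1, which inserts proteins into the inner membrane from the matrix side, gave 8.77, 9.20 and 9.19 in flor and 9.45, 9.57 and 9.47 in wine. It was 1.36-fold lower (1.13 to 1.65, limma adjusted p = 0.017), at −0.30 without flor replicate 1, and was not called without wine replicate 2 (adjusted p = 0.069).

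Genes whose products act as partners were set side by side as a log2 ratio within each array, which removes what both share on that array. It does not remove a deviation in which partners of unlike length differ. The distance of flor replicate 1 from the mean of flor replicates 2 and 3 was −0.62 for HSP60 (1719 bases) and 0.43 for HSP10 (321 bases). The 8 pairs were chosen after the values were seen, so no test was made. HSP60 over HSP10 was lower in flor by 0.73 on average, at −1.43, −0.37 and −0.39 in flor replicates 1 to 3 relative to the wine mean, whereas the wine arrays lay between −0.07 and 0.05. Without flor replicate 1 the difference was −0.38. MAS2 over MAS1 differed by −0.75, with flor at −0.90, −0.73 and −0.62 and wine between −0.21 and 0.17. Here the difference was nearly as large without flor replicate 1 (−0.67).

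TIM13 over TIM8 differed by −0.68 and TIM23 over TIM17 by −0.69 (−0.55 and −0.54 without flor replicate 1), and the strains did not overlap in either ratio. TIM9 over TIM10 stayed between −0.07 and 0.05 on all 6 arrays, so the ratio of this pair was alike in both strains even on flor replicate 1. SSC1 over MGE1 (−0.27, and 0.04 without flor replicate 1), TOM71 over TOM70 (−0.23) and TIM54 over TIM22 (−0.07) overlapped between strains. A ratio shows that partners moved unequally, not which of them stayed the same.

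**Figure D4:**
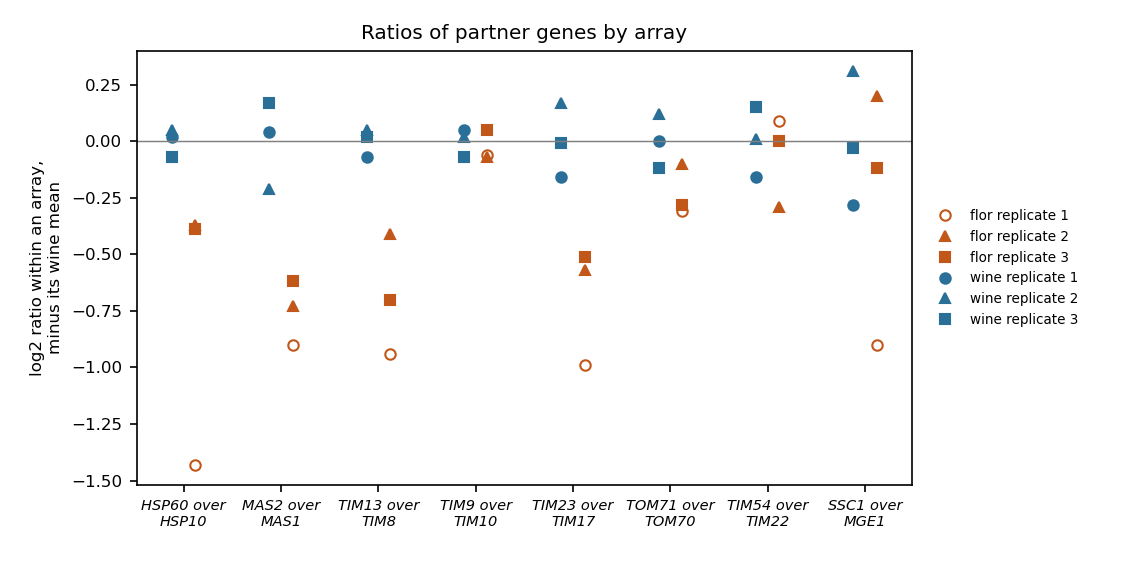
Log2 ratio of 8 pairs of partner genes within each array, with the mean of the 3 wine arrays subtracted. Flor arrays are orange (flor replicate 1 open) and wine arrays blue; the first 3 pairs and TIM23 over TIM17 have all flor points below all wine points, and TIM9 over TIM10 lies between −0.07 and 0.05 on every array.

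A second list held 32 further genes of outer membrane assembly, inner membrane insertion, presequence processing, mitochondrial proteolysis and matrix folding, of which 20 were measured. Of these 20, 7 were called lower in flor and 2 higher, where 23.6% and 20.5% of all features were, and the median change was −0.15 against −0.02 for all features. Among the presequence peptidases, CYM1, which degrades freed presequences, was lower at 6.76, 7.31 and 7.37 in flor against 8.06 ± 0.06 in wine, without overlap. The CYM1 change was −0.91 (limma adjusted p = 0.0014). The oligopeptidase gene PRD1 was lower too (−0.67, limma adjusted p = 0.0013). SOM1 and IMP1, a subunit and a catalytic subunit of the inner membrane peptidase, were higher in flor by 0.48 (limma adjusted p = 0.0034) and 0.39 (0.010). SOM1 gave 10.44, 10.27 and 10.20 against 9.83, 9.92 and 9.72, and IMP1 gave 9.29, 9.10 and 9.07 against 8.85, 8.81 and 8.63, both without overlap.

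Of 6 measured mitochondrial protease genes, 4 were called lower and 0 higher, against 23.6% and 20.5% of all features. The i-AAA protease gene YME1 had a change of −0.67 (limma adjusted p = 0.00083), the Lon protease gene PIM1 −0.54 (0.013) and the matrix unfoldase gene MCX1 −0.35 (0.0078). YTA12, a subunit of the m-AAA protease, was at −0.28 (limma adjusted p = 0.048) and lost its call when any 1 array other than flor replicate 2 was left out (−0.19, adjusted p = 0.062 without flor replicate 1, and −0.13, 0.24 with the length trend removed). PIM1 was not called without wine replicate 2 (adjusted p = 0.062), which left 2 of the protease genes lower, where 17.3% of all features were. Of 6 other matrix chaperone genes, TCM62, whose product is related to the chaperonin, was lower (−0.52, limma adjusted p = 0.0016), and 0 were higher. JAC1, a J protein of iron-sulfur cluster assembly, was at −0.24 (limma adjusted p = 0.13) and was called lower without flor replicate 1 (adjusted p = 0.0011). MDJ2, an inner membrane J protein, was at 0.32 (limma adjusted p = 0.065) and was called higher without flor replicate 1 (adjusted p = 0.032) or 2 (0.018). The genes of outer membrane assembly (1 measured) and inner membrane insertion (2 measured) had no call with 6 arrays and 1 lower call each without flor replicate 1.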

How the data were processed

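Cy3-labelled cRNA from 6 cultures was measured on Agilent arrays with 1 colour, per the labels' protocols. The authors deposited a table of log2 intensities for 6227 probes. The scale was read from the values (5.29 to 15.88). R 2.14.2 and limma are named in the submitters' processing notes; how background was corrected, arrays normalized and probes filtered is not given in the sources used here.

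Probes were named through the platform annotation, which can be old. One symbol was given for 4061 probes and none for 2166. An R64 gene list served to update 125 symbols. Probes of 1 gene were averaged, leaving 6226 features. Gene lengths are those of R64 from start to stop codon, introns included, and coordinates are left out, the build of the array being unstated. No filter was applied. The 6 arrays entered 1 linear model with strain as its term (limma 3.58.1, lmFit then eBayes, under R 4.3.3), tested two-sided, with 95% intervals from the moderated standard errors. All 31 measured genes of the list are named, and up to 4 called genes of each other list; YTA12, JAC1, MDJ2 and the genes named to complete a count were included for their dependence on single arrays. The members and lists were chosen with earlier results of these data known. The test was also run on simulated data with independent noise of the same SD on all arrays of a gene. That simulation held no deviating array and no trend with gene length, so it does not cover these traits of flor replicate 1. The labels call the cultures biological replicates. Replicate 2 of each strain also carries a technical replicate number of 2, and no partner array of it was analysed here. The number of arrays, 3 per strain, limits the precision. Per the labels, flor replicate 3 and wine replicate 2 shared slide 1, and the remaining 4 arrays shared slide 2. Alternatives were quantile normalization of the deposited values, median centring, omission of the dimmest features (25% or 50%), robust eBayes with an intensity trend and weighted arrays. Others were a block for slide or for replicate number, slide 2 alone, omission of each array and an adjusted p under 0.01. The last were a test against a log2 change of 0.5, and removal of a loess (span 0.5) of each array's deviations on log2 gene length. That loess also removes the part of the strain difference that follows length.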

Additional observations from a re-analysis of the deposited data

How the results depend on the processing

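The median over the import and folding genes lay below 0 in every alternative in which it was computed, between −0.36 (length trend removed) and −0.30. Quantile normalization, median centring, omission of the dimmest 25%, the intensity trend and slide as a block moved no call of the 31 genes, and omission of the dimmest 50% left 29 genes (TOM71 and TIM22 were dropped) with the same calls. The number lower was 6 on slide 2 alone (11.6% of all features were lower there), 9 at an adjusted p under 0.01 (14.8%) and 3 (TOM40, TIM13 and MAS2) in the test against a log2 change of 0.5 (3.57%), and the number higher was 0 in each of these. Slide 2 alone has 2 arrays per strain, and the other settings are stricter by construction. With single arrays left out the number lower ran from 10 to 21 (17.3% and 28.5% of all features), the number higher from 0 to 2 and the median from −0.33 to −0.30. Array weights gave flor replicate 1 the lowest weight (0.194) and 22 genes lower (29.7%). No called gene changed sign. The uncalled ERV1, PAM16, HSP10, HSP78 and TOM70 changed sign under at least 1 setting. The deviations of same-numbered arrays of the strains correlated at 0.372, 0.228 and 0.051 for replicates 1, 2 and 3. For flor replicates 1 and 2 this was the highest correlation with any wine array. Flor replicate 3 correlated better with wine replicate 2 (0.186), with which it shared slide 1. The main fit did not take the numbers as pairs, and these values cannot tell whether the cultures were paired. With the replicate block 17 genes were lower (25.4%) and 1 higher, with TIM9 (adjusted p = 0.034) and MGE1 (0.039) added and a median of −0.32. Without detection calls, no gene could be called absent, and a strain's own sequence under a probe can lower its signal, which was not tested.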

Other observations

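Cytosolic chaperones hand precursors to the import receptors, and the carriers and porin are among the products imported. Of 14 measured cytosolic chaperone genes, 3 were called lower in flor, SIS1 (−0.50, limma adjusted p = 0.0092), HSP26 (−0.46, 0.0083) and SSA4 (−0.37, 0.024), and SSA3, a stress-induced Hsp70 gene, was called higher (0.75, 0.0022). The number lower is near the share of all features called lower (23.6%; 20.5% were called higher). SSA3 gave 10.52, 11.10 and 10.93 in flor and 10.09, 10.09 and 10.11 in wine, without overlap. SSA4, also a stress-induced Hsp70 gene, gave 11.21, 11.53 and 11.60 against 11.90, 11.77 and 11.78, in the opposite direction. It lost its call without wine replicate 1, 2 or 3 (adjusted p = 0.091, 0.061 and 0.061), and its change was −0.25 without flor replicate 1. Each of the 3 wine omissions left 2 genes of the list lower, where 17.3%, 17.3% and 17.6% of all features were. Of the list, 5 were lower without flor replicate 2, where 22.4% of all features were. The median of the list was −0.29, and −0.09 without flor replicate 1. On that array the Hsp90 genes HSC82 and HSP82 and the cochaperone gene AHA1 were at 11.93, 11.99 and 10.10, against 12.74, 12.86 and 11.47 on flor replicate 2 and 12.67, 12.70 and 11.37 on flor replicate 3.

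Of 11 measured porin and carrier genes, 6 were called lower and 2 higher, with a median of −0.32. Of all features 23.6% were called lower and 20.5% higher, so the number higher is near that share. The dicarboxylate carrier gene DIC1 gave 9.77, 9.86 and 9.89 in flor and 10.75, 10.80 and 10.73 in wine, and was 1.90-fold lower (1.69 to 2.13, limma adjusted p = 2.1e-05). DIC1 was called lower in every setting tried. The citrate transporter gene CTP1 was higher, at 8.43, 7.84 and 8.47 against 7.40, 7.44 and 7.30 (0.87, limma adjusted p = 0.0021). Among the ADP/ATP carriers, PET9, the major isoform, was lower (−0.54, limma adjusted p = 0.029) and AAC1, a minor isoform, was higher (0.53, 0.0080). PET9 gave 13.33, 13.95 and 14.05 against 14.31, 14.29 and 14.35, and AAC1 gave 11.13, 11.56 and 11.52 against 10.79, 10.99 and 10.83. These genes are similar in sequence and their probes may share signal. The change of PET9 was −0.32 (adjusted p = 0.0037) without flor replicate 1. PET9 was not called without wine replicate 1, 2 or 3 (adjusted p = 0.076, 0.080 and 0.088). Each of these wine omissions left 3 genes of the list lower, where 17.3%, 17.3% and 17.6% of all features were. Without flor replicate 1, 8 genes of the list were lower, where 28.5% of all features were.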
